A study of Homo sapiens with 9 samples.

Results

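The 9 enzymes described here convert squalene into cholesterol, and their transcripts were followed in the human melanoma cell line WM3248 under the small molecule ARN22089. They are SQLE, LSS, CYP51A1, TM7SF2, MSMO1, NSDHL, EBP, SC5D and DHCR7, chosen by name with earlier results of these data known. The shares over all genes given below are thus set beside a list not chosen blind to the data. All 9 were found among the 14470 genes that could be named in the data. Cells received ARN22089 at 0 µM (the DMSO vehicle), 4 µM or 6 µM and were harvested 24 h later, and poly-A RNA was sequenced in 3 libraries per dose. All groups were the same line in the same medium, so the results hold for 1 line, and the labels do not say whether replicate libraries were grown apart. The p-values below therefore rest on library-to-library spread, which may be technical.

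Cholesterol is made in the endoplasmic reticulum from acetyl-CoA, through mevalonate and squalene. The enzymes after squalene oxidise it, close its rings to lanosterol, and then remove methyl groups, move a double bond and reduce others until cholesterol is reached. Most of their genes are known targets of SREBP2, a membrane-bound transcription factor that is cleaved and sent to the nucleus when sterol in that membrane is low, and that acts together with NF-Y, which binds CCAAT boxes, and SP1, which binds GC boxes.

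Levels are given as FPKM, a count of fragments divided by transcript length and by the fragments mapped in the library, summed over the transcripts assembled for a gene. By this value 7 of the 9 enzymes (SQLE, LSS, CYP51A1, MSMO1, NSDHL, EBP and DHCR7) were higher in every treated library than in every vehicle library, at both doses. Over all genes, 9.94% were so at 4 µM and 10.9% at 6 µM. By the other gene values described further on, SQLE, LSS, NSDHL and DHCR7 kept this separation at both doses, while CYP51A1 and EBP at 4 µM and MSMO1 at 6 µM lost it with at least 1 of them. Their ratios of mean FPKM lay between 1.47 and 2.01 at 4 µM against 0 µM, and between 1.57 and 2.35 at 6 µM against 0 µM. By summed FPKM, TM7SF2 and SC5D overlapped between all doses. With at least 1 of the other values, TM7SF2 was separated from vehicle at both doses and SC5D at 6 µM. None of the 9 passed the test over all genes in any of the 3 comparisons: the smallest p-value adjusted over all 12170 genes was 0.0556, for DHCR7 at 6 µM against 0 µM (limma). With other ways of valuing a gene from the same files, 3 or 4 enzymes passed at 6 µM against 0 µM, where 1.21% to 1.67% of all genes were called higher, and calls among all genes also went up, to between 478 and 524 from 38.

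Each library held 26506 to 30798 assembled transcripts and 11927 to 12549 named genes, and depth relative to the 6 µM library of replicate 2 ran from 0.802 to 1.34, while depth in reads is unknown. Pearson correlation between libraries of a dose, over genes, was 0.886 to 0.922. One vehicle library, replicate 1, was the lowest of all 9 libraries for 6 of the 9 enzymes, and it also had the lowest correlations with its group. All 8 melanocyte marker genes searched for were named. Their summed level was 406 to 1389 FPKM at 0 µM, 1246 to 2359 FPKM at 4 µM and 1385 to 2054 FPKM at 6 µM, and MLANA lay between 0 and 9.22 FPKM. S100B, at 97.0 to 1880 FPKM, was the largest part of that sum in every library but vehicle replicate 2. There it was at 97.0 FPKM, below DCT at 141 FPKM, and that library gave the lowest sum. All 8 markers had a difference above 0 in both comparisons with vehicle, against 49.4% and 46.1% of all genes. Their medians were 0.93 at 4 µM and 1.14 at 6 µM on the log2(FPKM + 1) scale. At an unadjusted p under 0.05, 4 and 3 of them were higher, against 6.23% and 8.06% of all genes, and 0 were called with limma. DCT, a melanin enzyme, had 291 ± 73.8 FPKM at 6 µM and 91.2 ± 44.5 FPKM at 0 µM (SD, n = 3), a difference of 1.74. The differences of these markers thus had the same sign as those of most of the enzymes. Their part in the enzyme values was not tested. Summed fibroblast markers were at 21.2 to 77.5 FPKM at 0 µM, 38.8 to 58.0 FPKM at 4 µM and 40.1 to 59.7 FPKM at 6 µM, and the epidermal markers KRT5, KRT1, TP63 and DSG3 and the immune markers PTPRC, CD3E, CD14 and MS4A1 were named in no library. Of the other 3 markers, CD68 was at 142 FPKM in 1 library at 4 µM and at 0 in the rest, KRT10 lay between 27.8 and 37.9 FPKM, and KRT14 at or under 2.27 FPKM. In these bulk libraries, fewer cells of a kind and less RNA per cell cannot be told apart.

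**Figure D1:**
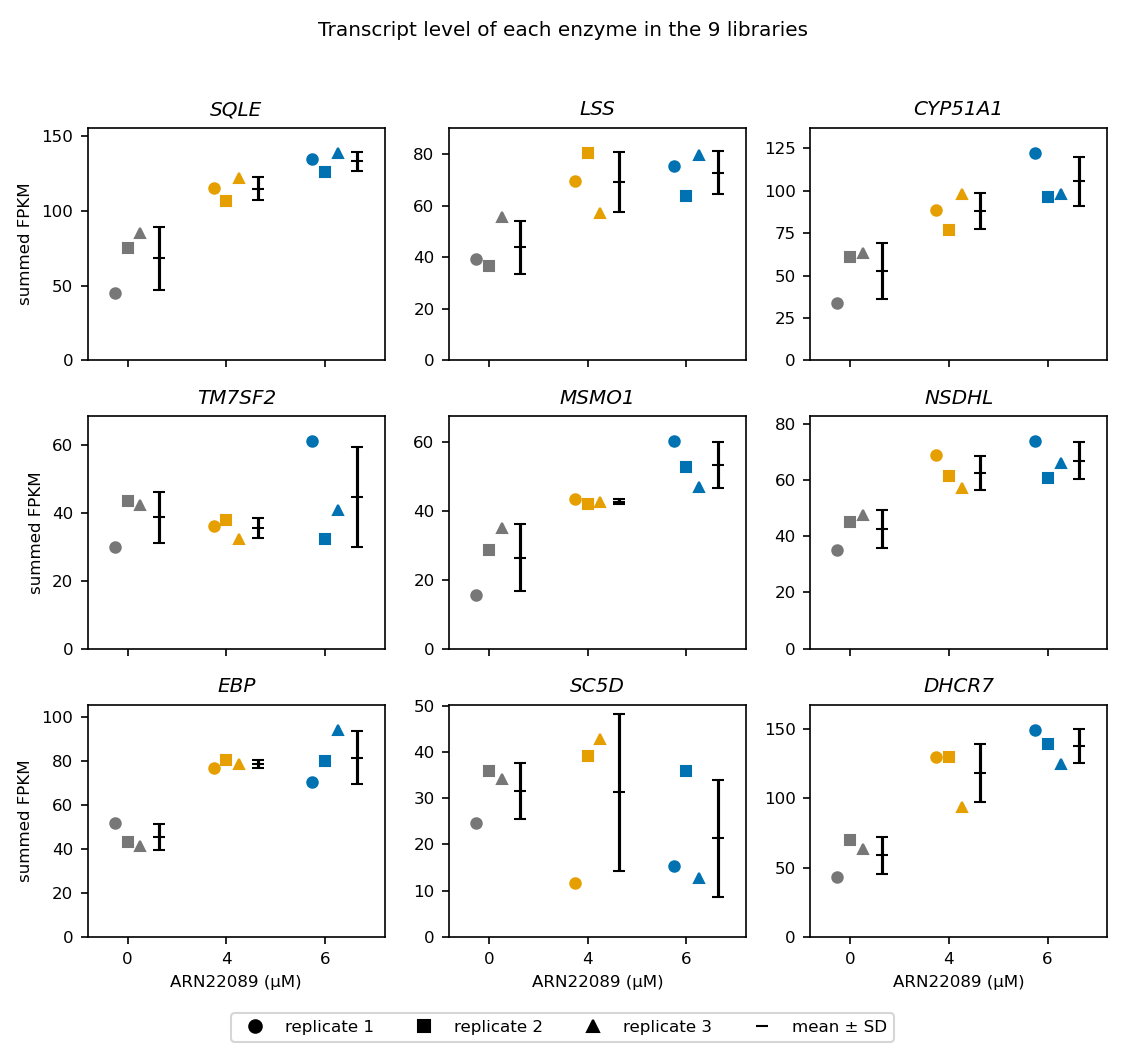
Summed FPKM of each enzyme (vertical axis, from 0) at 0, 4 and 6 µM ARN22089 (horizontal axis), with 1 symbol per library, its shape giving the replicate number, and the mean ± SD (n = 3) in black. By this value every treated library lies above every vehicle library for SQLE, LSS, CYP51A1, MSMO1, NSDHL, EBP and DHCR7, while TM7SF2 and SC5D overlap.

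SQLE, squalene epoxidase, adds the first oxygen to squalene and is a flux-controlling step of the pathway. It was assembled as 1 transcript of 11 exons in every library. Its level was 44.9, 74.8 and 85.2 FPKM at 0 µM, 116, 107 and 122 FPKM at 4 µM, and 134, 126 and 139 FPKM at 6 µM. The 3 doses did not overlap, and the 6 µM libraries were all above the 4 µM libraries, though not by the fragment value defined below for LSS. On the log2(FPKM + 1) scale SQLE differed by 0.79 ± 0.22 (SE) at 4 µM against 0 µM and by 1.00 ± 0.22 at 6 µM against 0 µM, with limma p-values adjusted over all genes of 0.336 and 0.0792. The step at 6 µM against 4 µM was 0.21, with a 95% interval of -0.29 to 0.72.

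LSS, lanosterol synthase, closes the ring system and makes lanosterol. It stood at 39.4, 36.7 and 55.4 FPKM at 0 µM, 69.7, 80.5 and 57.1 FPKM at 4 µM, and 75.3, 63.6 and 79.7 FPKM at 6 µM. Treated and vehicle libraries did not overlap, but the highest vehicle library and the lowest 4 µM library lay close together, and the treated doses overlapped each other. The differences were 0.65 ± 0.20 at 4 µM against 0 µM (adjusted p = 0.369, limma) and 0.74 ± 0.20 at 6 µM against 0 µM (adjusted p = 0.117, limma). Its most frequent form, with 22 exons, was present in 1, 3 and 3 libraries at 0, 4 and 6 µM. In 4 libraries, 1 of them vehicle, a separate transcript of 2 exons was added to the sum. Vehicle replicates 1 and 3 lacked the 22-exon form, and their sums were over 4 and 3 transcripts. By the consensus value described further on, the vehicle libraries were at 19.0, 32.5 and 30.6 FPKM and the lowest 4 µM library at 44.8 FPKM. FPKM times transcript length gives fragments scaled by library only, called the fragment value here, in which short pieces weigh less. By it LSS averaged 124 ± 24.9 at 0 µM, 248 ± 54.2 at 4 µM and 307 ± 15.2 at 6 µM (SD, n = 3).

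CYP51A1 is the cytochrome P450 that removes a methyl group from lanosterol. It was at 33.8, 61.2 and 63.5 FPKM at 0 µM, 88.5, 77.0 and 98.0 FPKM at 4 µM, and 122, 96.2 and 97.8 FPKM at 6 µM. Every treated library was above the vehicle libraries by summed FPKM, and the treated doses overlapped. The main transcript was 1531 bases long in 4 µM replicate 3 and 3046 to 3155 bases in the rest. By the fragment value that library had 145, below 188 and 190 in 2 vehicle libraries, and the difference at 4 µM against 0 µM was 0.43. The summed FPKM gave 0.77 ± 0.25 at 4 µM against 0 µM and 1.03 ± 0.25 at 6 µM against 0 µM (adjusted p = 0.375 and 0.092, limma). A form with another first exon, which starts upstream of the main one, took no share of the gene's FPKM in 1 vehicle library and 12.0% and 23.0% in the other vehicle libraries. Its share was 14.5%, 25.1% and 25.4% at 4 µM, and the 6 µM libraries had 28.6%, 41.0% and 16.9%, so the doses overlapped. An antisense RNA, CYP51A1-AS1, overlaps the gene, and strand here comes from splice sites, so reads of the pair may be mixed.

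MSMO1, methylsterol monooxygenase, and NSDHL, a sterol dehydrogenase, act in turn to take off the paired methyl groups that lanosterol carries on its first ring. MSMO1 was the lowest of the 9 at 0 µM, with 15.7, 28.7 and 34.9 FPKM, and stood at 43.5, 42.1 and 42.6 FPKM at 4 µM and 60.2, 52.7 and 47.0 FPKM at 6 µM. Like SQLE, it did not overlap between any of the doses by summed FPKM. Its difference was 0.74 ± 0.26 at 4 µM against 0 µM and 1.05 ± 0.26 at 6 µM against 0 µM (adjusted p = 0.388 and 0.101, limma). The main transcript was 961 bases long in 2 libraries, vehicle replicate 3 and 6 µM replicate 3, and 2028 to 2203 bases in the rest. By the fragment value, which does not divide by length, 6 µM replicate 3 had 43.0, below vehicle replicate 2 at 61.0 and below every 4 µM library. The doses averaged 40.9 ± 17.4 at 0 µM, 88.7 ± 3.06 at 4 µM and 92.6 ± 43.6 at 6 µM (SD, n = 3), and the step at 6 µM against 4 µM was -0.08, where the summed FPKM gave 0.31 with a 95% interval of -0.29 to 0.90.

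NSDHL was at 34.9, 45.0 and 47.6 FPKM at 0 µM, 68.9, 61.4 and 57.0 FPKM at 4 µM, and 73.7, 60.5 and 66.1 FPKM at 6 µM. Treated libraries were all above vehicle, and the treated doses overlapped. It differed by 0.55 ± 0.16 at 4 µM against 0 µM and by 0.65 ± 0.16 at 6 µM against 0 µM (adjusted p = 0.353 and 0.0973, limma). A form of 8 exons was found in all 9 libraries and one of 9 exons in 7 of them.

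EBP is the isomerase that shifts a double bond within the sterol rings, and is known also as the emopamil binding protein. It was at 52.1, 43.4 and 41.3 FPKM at 0 µM, 77.1, 80.5 and 78.7 FPKM at 4 µM, and 70.6, 80.0 and 94.5 FPKM at 6 µM. The 4 µM libraries differed little among themselves and lay within the range of the 6 µM libraries. EBP differed by 0.78 ± 0.15 at 4 µM against 0 µM (adjusted p = 0.267, limma) and by 0.83 ± 0.15 at 6 µM against 0 µM (adjusted p = 0.0629, limma), and by 0.04 at 6 µM against 4 µM, with a 95% interval of -0.30 to 0.38.

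DHCR7 reduces 7-dehydrocholesterol, the vitamin D precursor, to cholesterol. It was assembled as 1 transcript of 9 exons in every library, at 43.5, 69.6 and 63.2 FPKM at 0 µM, 130, 130 and 93.8 FPKM at 4 µM, and 149, 139 and 125 FPKM at 6 µM. It was higher in every treated library than in every vehicle library, and its 4 µM and 6 µM libraries overlapped. By summed FPKM it had the largest difference of the 9 in both comparisons with vehicle, 1.00 ± 0.21 at 4 µM against 0 µM (adjusted p = 0.267, limma) and 1.24 ± 0.21 at 6 µM against 0 µM (adjusted p = 0.0556, limma), the second with a 95% interval of 0.76 to 1.72. The consensus value described further on put MSMO1 (1.13) and LSS (1.06) above DHCR7 (1.01) at 4 µM and LSS (1.27) above DHCR7 (1.24) at 6 µM. The confidence bounds that Cufflinks gave for the DHCR7 transcript lay within 2.64% to 6.31% of its value, narrower than the spread between libraries of a dose.

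TM7SF2 and SC5D stand apart from the other 7 in both their values and their assembly. TM7SF2, a sterol reductase that works beside LBR on the same step, was at 30.0, 43.6 and 42.5 FPKM at 0 µM, 36.2, 37.97 and 32.4 FPKM at 4 µM, and 61.1, 32.3 and 40.9 FPKM at 6 µM. By summed FPKM the doses overlapped throughout. The differences were -0.10 ± 0.24 at 4 µM against 0 µM and 0.18 ± 0.24 at 6 µM against 0 µM (adjusted p = 0.895 and 0.738, limma). The gene lies directly downstream of VPS51, a subunit of a vesicle tethering complex, and Cufflinks joined the exons of both genes in 1 vehicle library, 3 libraries at 4 µM and 3 at 6 µM. In 6 of these 7 libraries VPS51 itself was listed at 0. The values of TM7SF2 in joined libraries thus describe both genes, and the summed fragment value of both loci was 103 ± 12.1 at 0 µM, 152 ± 11.9 at 4 µM and 159 ± 24.4 at 6 µM (SD, n = 3). By the consensus value described further on, TM7SF2 was above vehicle in every treated library (0.59 at 6 µM against 0 µM, adjusted p = 0.0506, limma). That value covered 4249 bases, 1460 of them within the gene, and also took in separate VPS51 transcripts. Held within the RefSeq bounds of the gene, that value overlapped with vehicle at both doses. What part of the joined values belongs to TM7SF2 cannot be told apart.

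SC5D, the desaturase that makes 7-dehydrocholesterol, was at 24.6, 35.8 and 34.1 FPKM at 0 µM, 11.8, 39.1 and 42.9 FPKM at 4 µM, and 15.3, 35.9 and 12.8 FPKM at 6 µM. The difference was -0.19 ± 0.52 at 4 µM against 0 µM and -0.66 ± 0.52 at 6 µM against 0 µM (adjusted p = 0.915 and 0.536, limma). The low libraries were those with a long transcript: SC5D was 6853, 6921 and 6906 bases long in the libraries at 11.8, 15.3 and 12.8 FPKM, and 1342 to 2137 bases in the other 6. Its exon number was 5 in all 9. By the fragment value SC5D had 44.2, 65.8 and 54.5 in vehicle libraries, 80.7, 66.7 and 57.5 in libraries at 4 µM, and 106, 76.7 and 88.5 in those at 6 µM. On that scale every 6 µM library was above every vehicle library, and the difference at 6 µM against 0 µM was 0.72 (adjusted p = 0.0727, limma), opposite in sign to the FPKM value.

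**Figure D2:**
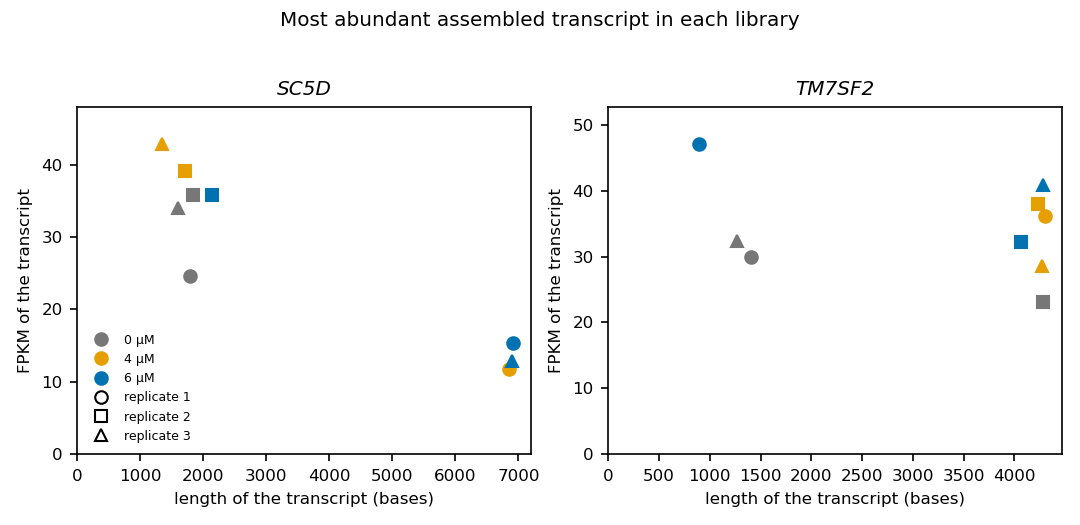
FPKM of the most abundant assembled transcript (vertical axis) against its length in bases (horizontal axis) for SC5D and TM7SF2, with 1 point per library, coloured by dose and shaped by replicate number. The 3 SC5D points at 6853 to 6921 bases are its 3 lowest, and the 6 TM7SF2 transcripts of 4068 to 4299 bases also hold VPS51 exons.

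At 4 µM against 0 µM, 0 of the 9 enzymes were called at an adjusted p under 0.05 with limma, where 8 of all 12170 genes (0.0657%) were, or 2 with the replicate number as a block. Of the 9, 7 were higher at an unadjusted p under 0.05, against 6.23% of all genes. Differences were above 0 for 7 of 9, against 49.4% of all genes, and 7 had every 4 µM library above every vehicle library, against 9.94% of all genes. The median difference of the 9 was 0.74, against 0.00 over all genes.

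At 6 µM against 0 µM, 0 of the 9 were again called, where 38 of all genes (0.312%) were, or 4 with the replicate block. At an unadjusted p under 0.05 the same 7 enzymes were higher, against 8.06% of all genes. The difference was above 0 for 8 of 9, against 46.1% of all genes, and 7 had every 6 µM library above every vehicle library, against 10.9% of all genes. The median of the 9 was 0.83, against -0.04 over all genes. Both comparisons use the same vehicle libraries, so they are not independent of each other.

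At 6 µM against 4 µM, 0 of the 9 were called, where 3 of all genes (0.0247%) were, or 1 with the replicate block, and 0 of the 9 had an unadjusted p under 0.05, against 1.68% of all genes that were higher by that rule. The difference was above 0 for 8 of 9, against 44.2% of all genes. SQLE and MSMO1 had every 6 µM library above every 4 µM library, which held for 3.65% of all genes. The median of the 9 was 0.21, against -0.03 over all genes. The widest 95% interval at this step, for SC5D, was -1.67 to 0.71, and the narrowest, for EBP, was -0.30 to 0.38.

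**Figure D3:**
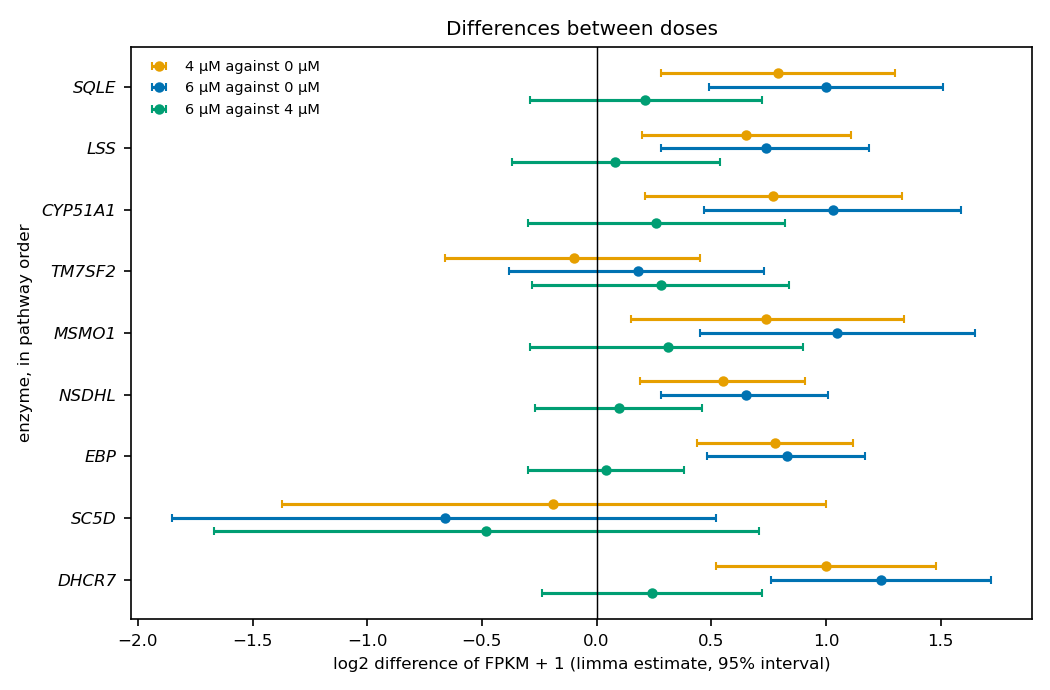
Difference of each enzyme on the log2(FPKM + 1) scale (horizontal axis) with its 95% interval from limma, for 4 µM against 0 µM, 6 µM against 0 µM and 6 µM against 4 µM. The intervals of 7 enzymes lie above 0 in both comparisons with vehicle, and the intervals at 6 µM against 4 µM include 0 for all 9.

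Within replicate numbers, whose libraries share a date entry in the labels, the median difference of the 9 at 4 µM against 0 µM was 0.96 for replicate 1, 0.51 for replicate 2 and 0.32 for replicate 3. At 6 µM against 0 µM it was 1.06, 0.75 and 0.52 in the same order, and each of the 7 enzymes was higher within all 3 numbers in both comparisons. Without vehicle replicate 1, the low library, the 7 enzymes differed by 0.42 to 0.88 at 4 µM against 0 µM and by 0.51 to 1.04 at 6 µM against 0 µM. At 6 µM against 4 µM the medians within numbers were 0.22, -0.01 and 0.21.

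Other gene values were read from the same transcripts. A consensus value took the exon bases of a gene that were covered in at least 50% of libraries. It is the mean FPKM per base there, added over all transcripts on those bases, of any gene and either strand. This value called 4 enzymes at 6 µM against 0 µM (SQLE, LSS, NSDHL and DHCR7), where it called 1.67% of all genes higher. Held within the RefSeq bounds of each gene, it called the same 4, against 1.56% of all genes higher. The fragment value called 3 (LSS, NSDHL and DHCR7), against 1.21% of all genes higher. With the consensus value the differences were 0.97 for SQLE, 1.27 for LSS, 0.96 for NSDHL and 1.24 for DHCR7, with limma p-values adjusted over all genes of 0.0476, 0.0349, 0.0195 and 0.0287. Among the 7, LSS and NSDHL had the differences that grew most against the summed value, while DHCR7 kept 1.24. The fragment value and the value within gene bounds were added after the values of SC5D and TM7SF2 had been seen.

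**Figure D4:**
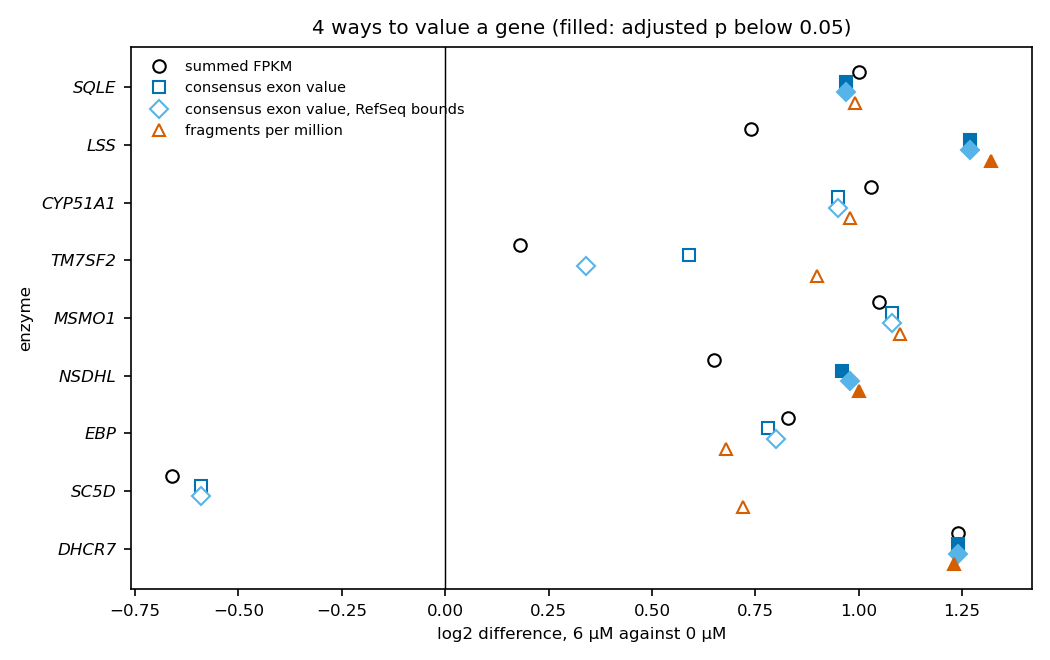
Difference at 6 µM against 0 µM on the log2 scale (horizontal axis) for each enzyme and each of 4 ways to value a gene, with filled symbols for an adjusted p below 0.05. DHCR7 stays near 1.24 with all 4, and SC5D changes sign with the fragment value (fragments scaled by library only).

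The 9 enzymes together held 319, 439 and 468 FPKM in the vehicle libraries, 641, 655 and 625 FPKM at 4 µM, and 762, 687 and 703 FPKM at 6 µM. FPKM is per length, so levels of different genes can be set beside each other where the assembled transcripts are alike. At 0 µM the order of means ran from SQLE (68.3 ± 20.9 FPKM) and DHCR7 (58.8 ± 13.6 FPKM) through CYP51A1, EBP, LSS, NSDHL, TM7SF2 and SC5D to MSMO1 (26.4 ± 9.81 FPKM), and no neighbours in it differed by more than the larger of their SDs. At 6 µM it ran from DHCR7 (138 ± 12.3 FPKM) and SQLE (133 ± 6.33 FPKM) through CYP51A1 (105 ± 14.6 FPKM), EBP, LSS, NSDHL, MSMO1 and TM7SF2 to SC5D (21.3 ± 12.7 FPKM). By the same measure, SQLE stood above CYP51A1 there, CYP51A1 above EBP and NSDHL above MSMO1. With the consensus value NSDHL (63.7 ± 6.37 FPKM) and MSMO1 (44.6 ± 20.8 FPKM) at 6 µM differed by less than the larger SD. By it, LSS at 0 µM (27.35 FPKM) was below NSDHL (32.2 FPKM) and SC5D (29.8 FPKM), so the places of LSS and MSMO1 also depend on the gene value. The places of TM7SF2 and SC5D in the order rest on the joined and the long transcripts described above and are uncertain. The order at 4 µM was the same as at 6 µM.

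The sequences upstream of these genes were read because 7 of the enzymes were higher together in all treated libraries by summed FPKM and because SREBP2, NF-Y and SP1 are the known regulators of such genes. Windows of 250 bases before the start in RefSeq (GRCh38.p14) were held for 8 of the 9 enzymes. Assembled 5′ ends lay within 100 bases of that start in all 9 libraries for LSS, CYP51A1, MSMO1, NSDHL, SC5D and DHCR7, in 8 for EBP and in 2 for TM7SF2. The windows printed are those of LSS, NSDHL and DHCR7, which were called with each of the other gene values, and of MSMO1, which has 4 CCAAT boxes, each 5′ to 3′ on the strand of its gene. Capitals mark the CCAAT box (CCAAT or, on the other strand, ATTGG) and the GC box (GGGCGG or CCGCCC). LSS is at chr21:46228775-46229024 on the minus strand, MSMO1 at chr4:165327419-165327668 on the plus strand, NSDHL at chrX:152830813-152831062 on the plus strand and DHCR7 at chr11:71448394-71448643 on the minus strand.
LSS: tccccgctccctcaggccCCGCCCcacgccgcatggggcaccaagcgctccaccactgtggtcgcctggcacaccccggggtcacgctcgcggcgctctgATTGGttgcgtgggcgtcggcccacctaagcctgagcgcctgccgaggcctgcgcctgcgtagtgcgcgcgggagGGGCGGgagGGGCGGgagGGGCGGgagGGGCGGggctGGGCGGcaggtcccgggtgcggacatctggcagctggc
MSMO1: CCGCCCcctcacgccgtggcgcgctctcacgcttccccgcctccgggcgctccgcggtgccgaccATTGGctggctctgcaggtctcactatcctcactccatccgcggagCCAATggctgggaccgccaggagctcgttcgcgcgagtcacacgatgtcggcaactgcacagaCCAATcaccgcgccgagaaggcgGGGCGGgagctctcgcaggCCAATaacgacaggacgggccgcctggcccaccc
NSDHL: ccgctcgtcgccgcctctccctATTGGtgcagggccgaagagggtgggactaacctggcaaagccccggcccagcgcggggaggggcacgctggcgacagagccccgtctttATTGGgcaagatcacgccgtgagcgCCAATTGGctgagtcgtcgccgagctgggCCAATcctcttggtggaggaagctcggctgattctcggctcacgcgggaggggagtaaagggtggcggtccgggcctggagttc
DHCR7: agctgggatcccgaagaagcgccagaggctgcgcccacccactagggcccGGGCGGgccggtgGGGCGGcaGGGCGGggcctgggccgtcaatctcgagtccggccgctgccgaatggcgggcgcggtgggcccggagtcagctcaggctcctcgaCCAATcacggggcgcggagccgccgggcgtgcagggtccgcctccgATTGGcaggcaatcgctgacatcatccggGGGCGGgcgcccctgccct

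A CCAAT box was present in 7 of the 8 windows, all but that of CYP51A1, and in 32.0% of 35116 windows of all genes. Those 35116 take in every start held, with no regard to expression. For each enzyme only 1 start was used, that nearest its assembled 5′ ends in most libraries. The shares over all windows in this paragraph are thus not a like-for-like background. Counting overlapping matches on both strands, NSDHL had 5, MSMO1 4, EBP 3, DHCR7 2, and LSS, TM7SF2 and SC5D 1 each. In NSDHL, 2 of the 5 share letters in CCAATTGG. The match nearest to the RefSeq start lay between 30 and 150 bases upstream of it. Assembled 5′ ends of SC5D lay a median of 68 bases upstream of that start. Its 1 match, at position -56, thus falls within most of its assembled transcripts. Assembled 5′ ends of EBP near its start lay a median of 28.5 and up to 60 bases upstream, and those of DHCR7 up to 50. Their nearest matches, at -30 and -48, thus also fall within some of their transcripts. A GC box was present in 7 of 8, all but that of NSDHL, and in 42.6% of all windows. LSS had 6 matches. A sterol response core written as TCACNCCAC, on either strand, was in 0 of 8 windows and in 0.883% of all windows. GC content was 57.6% to 76.8% in the 8 windows, against a median of 58.0% over all. A match here describes letters only, and the absence of one says only that these letters are not in this window.

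Enzymes of the same steps that are not among the 9 were read from lists. Of 4 other sterol enzymes, 0 were called in any comparison with limma by summed FPKM. At an unadjusted p under 0.05, 2 were higher than vehicle at 4 µM and at 6 µM, against 6.23% and 8.06% of all genes. ERG28, a scaffold that holds the demethylating enzymes together, averaged 147 ± 21.2 FPKM at 6 µM and 61.8 ± 18.3 FPKM at 0 µM (SD, n = 3), a difference of 1.27 (adjusted p = 0.0629, limma). HSD17B7, the ketoreductase that follows NSDHL, averaged 33.6 ± 3.82 FPKM at 6 µM and 21.9 ± 2.69 FPKM at 0 µM. ERG28 and HSD17B7 were called at 6 µM against 0 µM with the consensus value (1.19 and 0.78, adjusted p = 0.0366 and 0.0454, limma), and ERG28 with the fragment value (adjusted p = 0.0375). LBR, the reductase that shares its step with TM7SF2, averaged 20.9 ± 3.46 FPKM at 6 µM and 28.6 ± 4.78 FPKM at 0 µM, a difference of -0.43 (adjusted p = 0.294, limma).

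The mevalonate pathway, which supplies squalene, had 10 of 10 genes with a difference above 0 in both comparisons with vehicle. Over all genes, 49.4% were so at 4 µM and 46.1% at 6 µM. The list median was 0.77 at 4 µM against 0 µM and 0.93 at 6 µM against 0 µM. MVD, mevalonate diphosphate decarboxylase, was the 1 gene of the list called at 6 µM against 0 µM by summed FPKM, averaging 75.4 ± 11.7 FPKM at 6 µM and 24.3 ± 6.50 FPKM at 0 µM, a difference of 1.62 ± 0.25 (adjusted p = 0.0485, limma, and 0.0751 with the replicate block). That call held in 7 of 19 alternatives, and the adjusted p without any 1 of the 9 libraries lay between 0.052 and 0.173. HMGCS1, which makes HMG-CoA, and FDFT1, squalene synthase, each differed by 1.16 at 6 µM against 0 µM (adjusted p = 0.0526 and 0.0556, limma). The consensus value called 5 of the 10 at 6 µM against 0 µM (HMGCS1, MVD, IDI1, FDPS and FDFT1), and the fragment value called these and MVK. With the fragment value HMGCS1 differed by 1.52 and FDFT1 by 0.98 (adjusted p = 0.0365 and 0.024, limma), and HMGCS1 passed with median scaling too (adjusted p = 0.0478).

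Of 7 genes that supply electrons to these enzymes, 0 were called in any comparison with limma by summed FPKM. At an unadjusted p under 0.05, 2 were higher than vehicle at 4 µM and 1 at 6 µM, against 6.23% and 8.06% of all genes. PGRMC2, a haem-binding partner of cytochromes P450, differed by 0.44, CYB5A, a cytochrome b5, by 0.36 and PGRMC1, a relative of PGRMC2, by -0.29 at 6 µM against 0 µM. PGRMC2 was called with the consensus value (0.56, adjusted p = 0.0372, limma) and not with the fragment value (adjusted p = 0.0764). POR, the reductase that SQLE and CYP51A1 both need, averaged 29.6 ± 0.174 FPKM at 6 µM and 27.4 ± 2.96 FPKM at 0 µM. Of 15 tested genes of SREBP control and sterol handling, 0 were called with limma by summed FPKM. At 6 µM against 0 µM, 5 were higher and 2 lower at an unadjusted p under 0.05. Over all 12170 genes, 2165 had such a p there in either direction, with 981 higher (8.06% of all genes). INSIG1, which holds SREBP back in the endoplasmic reticulum and is itself an SREBP target, averaged 48.1 ± 10.9 FPKM at 6 µM and 21.2 ± 6.18 FPKM at 0 µM (difference 1.16, adjusted p = 0.0722, limma). INSIG1 was called with the consensus value (1.67, adjusted p = 0.0349, limma) and with the fragment value (2.00, adjusted p = 0.0263, limma). NPC2, a lysosomal sterol carrier, differed by 0.91, and SOAT1, which esterifies cholesterol, by 0.85, a sign that turned with the consensus and fragment values (-0.14 and -0.16). SREBF2, the gene of SREBP2, averaged 64.4 ± 12.7 FPKM at 6 µM and 61.7 ± 8.10 FPKM at 0 µM. SREBF1, of the same list, averaged 50.3 ± 11.3 FPKM at 6 µM and 28.9 ± 7.98 FPKM at 0 µM (difference 0.79, adjusted p = 0.151, limma).

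**Figure D5:**
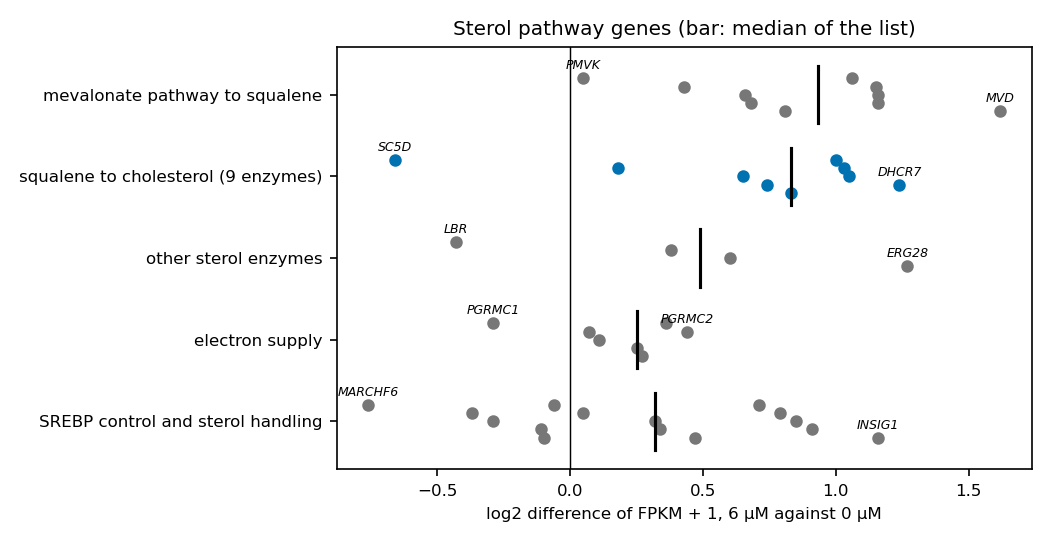
Difference at 6 µM against 0 µM on the log2(FPKM + 1) scale (horizontal axis) for the genes of each sterol list (rows), with 1 point per gene, the list median as a bar, and the lowest and highest gene named. The mevalonate list has its median at 0.93, the 9 enzymes (blue) at 0.83, and the electron supply list at 0.25.

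Tested genes outside the lists were ranked by Pearson correlation over the 9 libraries with the mean of the 9 enzymes. The pathway and marker lists were left out of this ranking, so their genes could not appear in it. The 5 highest were GLUL, glutamine synthetase (0.990), MMAB (0.983), TUBB4A, a beta tubulin (0.983), CRTAP (0.977) and TTYH2 (0.976). All genes were read from the same 9 libraries, with their doses and depths, so these values describe likeness only. GLUL stood at 12.6, 22.0 and 22.4 FPKM at 0 µM, 30.2, 31.1 and 30.6 FPKM at 4 µM, and 35.6, 32.6 and 31.3 FPKM at 6 µM, with vehicle replicate 1 again the lowest library.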

How the data were processed

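Poly-A RNA of 9 libraries was measured, 3 per dose, grouped by treatment label. The submitters' processing notes list Trimmomatic, Cufflinks 2.2.1, TopHat2 2.1 with Bowtie2 2.2.7, R 4.0.3 and SAMtools 1.9. The deposited attribute column holds FPKM for each transcript, which the authors obtained from Cufflinks. Those notes name GRCh37, but 98.0% of introns sit at a GRCh38 position recorded in GENCODE, so GRCh38 is used here.

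Spliced transcripts were named by same-strand overlap with a gene and at least 1 intron of a length annotated for it. This named 95.8% of 193769 spliced transcripts (Python 3.11.15, pandas 2.3.3). Single-exon transcripts were named where at least 50% of their length overlapped only 1 gene, on either strand, that had no spliced transcript. FPKM was summed per gene. Log2(FPKM + 1), which understates folds of low genes, was tested with limma 3.58.1 in R 4.3.3 across 12170 genes that averaged 1 FPKM or more, on all 9 libraries, with Benjamini-Hochberg adjustment and a threshold of 0.05. The script was tested on simulated data. A value of 0 may be a failed assembly, and strand was not given in the sources used here.

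Same-numbered libraries share a date entry in the labels, so the replicate number was an alternative block. Deviations from dose means correlated at -0.01 to 0.13 within numbers, and 9 of 9 libraries correlated best with their own number. Other alternatives were the gene value, naming, pseudocount, filter, scaling, the doses fitted and leaving out each library. Text names all 9 enzymes and the 5 most alike genes outside the pathway and marker lists. Of each pathway list it names the called genes and 3 largest differences at 6 µM against 0 µM. VPS51, DCT, S100B, POR, SREBF1 and SREBF2 and genes called only with other gene values were named after their values were seen, for their role. One further gene of the lists is not reported here. Members and lists were chosen with earlier results of these data known.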

Additional observations from a re-analysis of the deposited data

How the results depend on the processing

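The number of enzymes called stayed at 0 in each comparison under every alternative run but these: at 6 µM against 0 µM it was 4 with the consensus exon value, 4 with that value within RefSeq bounds and 3 with the fragment value. Without each library in turn it was 0 to 0 in all 3 comparisons. The replicate block called 0 enzymes in each comparison and, beside the all-gene counts and MVD in the report, changed no other call. The 7 enzymes stayed above 0 in both comparisons with vehicle in every alternative.

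Signs turned in 17 of 513 enzyme values under an alternative. TM7SF2 at 4 µM against 0 µM was 0.55 with the consensus value, 0.24 with TPM, 0.11 within bounds and 1.23 in fragments. Without single libraries it ran from -0.07 (6 µM replicate 1) to 0.38 (6 µM replicate 2) at 6 µM against 0 µM, and it was -0.33 at 6 µM against 4 µM in fragments. SC5D was 0.15 with TPM, 0.32 in fragments and -0.50 to 0.39 without single libraries (4 µM replicate 3 and replicate 1) at 4 µM against 0 µM, and in fragments 0.72 at 6 µM against 0 µM and 0.40 at 6 µM against 4 µM. At 6 µM against 4 µM, MSMO1 was -0.05 with both consensus values and -0.08 in fragments, EBP was -0.01 with TPM and -0.07 to 0.14 without single libraries (6 µM replicate 3 and replicate 1), and LSS -0.05 to 0.20 (4 µM replicate 3 and replicate 2). PGRMC1 was 0.00 with TPM and SOAT1 -0.14, -0.14 and -0.16 with the consensus values and fragments at 6 µM against 0 µM. The causes were not tested beyond the transcript lengths given above.

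All-gene counts at 6 µM against 0 µM were 38 as reported, 524 with the consensus value, 502 within bounds, 478 in fragments, 60 with median scaling, 22 with no filter, 19 with 2 doses only, 17 with TPM, 4 with the block and 16 to 66 without 1 library. At 4 µM against 0 µM they were 8 as reported, 2 with the block and 3 to 25 without 1 library. At 6 µM against 4 µM they were 3, 1 with the block, 6 with 2 doses only, 5 with no filter and 2 to 14 without 1 library. TPM moved the median of all genes to 0.31 at 4 µM against 0 µM and 0.23 at 6 µM against 0 µM, where 1 vehicle library has the highest FPKM sum, and the 7 enzymes then differed by 0.90 to 1.36 and 0.95 to 1.54. Depth in reads is unknown, so no limit of detection can be given.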
